A study of Mus musculus with 26 samples.

Results

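The 50 genes described here are those of the transforming growth factor beta (TGF-beta) superfamily that were named for this work by gene symbol. They comprise 3 TGF-beta ligands, 3 activin and inhibin chains, 10 bone morphogenetic protein (BMP) and growth differentiation factor (GDF) ligands, and 6 proteins that hold or present latent TGF-beta. The others are 6 type I and 4 type II receptors, 2 co-receptors, 8 SMADs, 4 Id genes and 4 feedback regulators. All 50 were found among the 54532 genes of the count files, and all 50 passed the filter on low counts in both fits. RNA was sequenced from the aorta of male mice in 26 libraries. The untreated libraries form 4 groups of 4, the ascending and the descending aorta of Fbn1 C1041G/+ mice and of their wild-type (WT) littermates. The other 10 libraries are ascending aortas of C1041G/+ mice, 5 from mice given an antisense oligonucleotide (ASO) against angiotensinogen, called AGT-ASO, and 5 from mice given a control ASO. Thus every ASO library carries the mutation, and no ASO library is wild type. Fbn1 encodes fibrillin-1, and heterozygous C1041G mice are a model of Marfan syndrome; the mutation is in the germ line, so it is present in all cells. The labels used here give no age, ASO dose or length of treatment. The labels do not state that each library of a group is a separate animal, so p-values measure the spread between these libraries.

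TGF-beta ligands are secreted in a latent complex that is tethered to microfibrils by the latent TGF-beta binding proteins, or to cell surfaces by LRRC32 and NRROS. Released ligands of the superfamily bind pairs of type I and type II serine/threonine kinase receptors, which phosphorylate SMAD2 and SMAD3 (TGF-beta and activin) or SMAD1, SMAD5 and SMAD9 (BMP). These enter the nucleus with SMAD4, while SMAD6 and SMAD7 inhibit the pathway and Id genes are direct targets of BMP signalling. In the aortic wall the pathway regulates smooth muscle differentiation and matrix production, and mutations of several of its genes cause inherited aortic aneurysm in humans.

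The libraries held 17171652 to 28554356 counts. Levels are given as CPM, counts scaled to a common library size after TMM normalisation, and values of single libraries are listed in the order of the library numbers. These are 2, 4, 6 and 8 for C1041G/+, 1, 3, 5 and 7 for WT, 14, 15, 18, 19 and 20 for AGT-ASO, and 8, 12, 13, 16 and 17 for control ASO. Smooth muscle markers had the highest mean log2 CPM of 9 marker lists in every group, at 9.73 ± 0.14 and 9.63 ± 0.14 (SD, n = 4 each) in C1041G/+ and WT ascending aorta. Marker levels differed between regions: the heart muscle score was 3.28 ± 0.82 in C1041G/+ and 4.06 ± 1.23 in WT ascending aorta, against 0.81 ± 0.16 and 0.90 ± 0.12 in C1041G/+ and WT descending aorta (SD, n = 4 each). The 2 ascending groups overlapped, with scores of 2.64 to 4.46 in C1041G/+ and 2.59 to 5.56 in WT. Because these are bulk samples, fewer cells of a type and less RNA per cell cannot be told apart.

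Counted per kb of exon, so that genes of different length can be compared, the 50 members spanned from 0.13 to 249.9 CPM per kb as the mean of the 6 groups. Ltbp4, which binds latent TGF-beta and takes part in elastic fibre assembly, was the most abundant, followed by Id3 at 156.9, Id1 at 103.8 and Id2 at 72.6 CPM per kb. Bmp5 and Bmp7, at 0.13 and 0.278 CPM per kb, were the least abundant. Among the TGF-beta ligands, Tgfb3 made up 75.7% ± 4.49 of the summed CPM per kb in C1041G/+ ascending aorta and 72.7% ± 3.21 in WT ascending aorta (SD, n = 4 each). Tgfb1, at 7.82% ± 0.81 and 11.1% ± 1.32 in the same groups, was the least abundant of the 3 ligands in every group.

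The most abundant activin chain was Inhba, at 39.5 CPM per kb in C1041G/+ and 27.4 in WT ascending aorta. Of the BMP and GDF ligands, Gdf10 (44.4 and 31.1), Bmp4 (43.9 and 47.3) and Bmp6 (33.4 and 38.5 CPM per kb in the same groups) were of like level. Bmpr1a led the type I receptors at 50.9 and 58.8 CPM per kb, and Tgfbr2 led the type II receptors at 32.8 and 33. Endoglin (Eng), a co-receptor of endothelial cells, had 45 and 55.6, and Smad6 led the SMADs at 29.9 and 37.6 CPM per kb. Among the receptor-regulated SMADs, Smad5 had the highest level, at 11.7 and 12.8 CPM per kb. Ski, a corepressor that binds SMADs, was the most abundant feedback regulator at 62.9 and 66.2 CPM per kb.

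**Figure D1:**
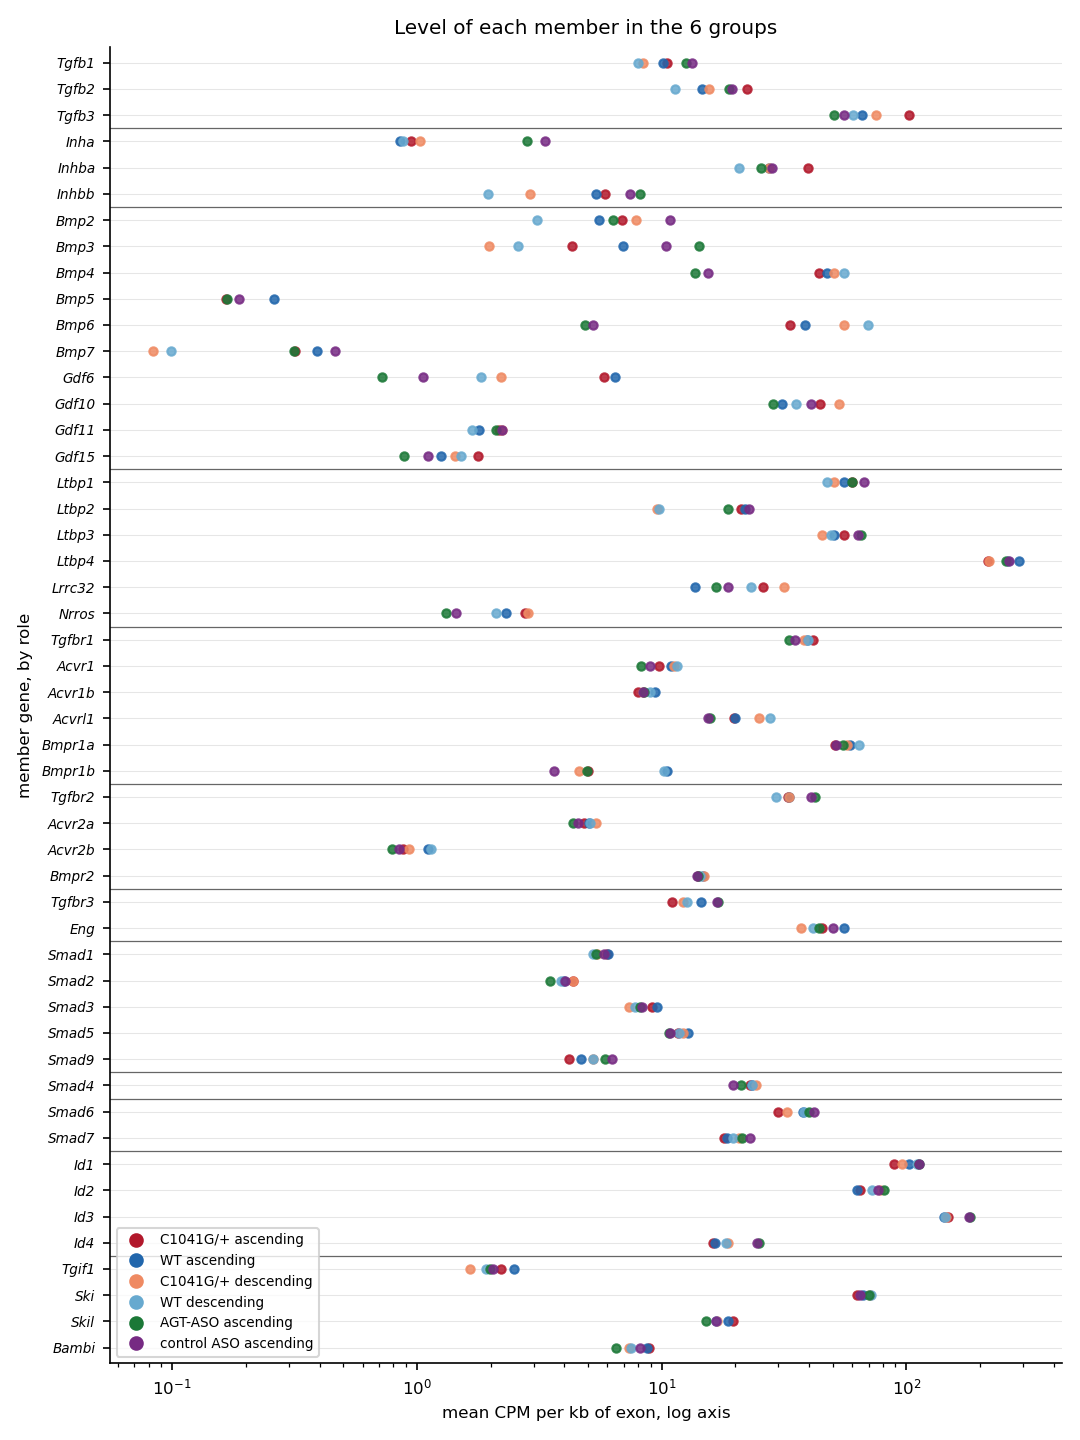
Mean CPM per kb of exon (log axis) of each of the 50 members in the 6 groups, 1 point per group, with lines between the roles (ligands at the top, then latency proteins, receptors, SMADs, Id genes and feedback regulators). Levels run from 0.0836 CPM per kb for Bmp7 in C1041G/+ descending aorta to 287.6 for Ltbp4 in WT ascending aorta, and Bmp5, listed at 0 in both descending groups, has no point there.

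Several members not called by genotype varied little between libraries. Ski had 339.7, 340.5, 356 and 364 CPM in C1041G/+ ascending aorta, against 388, 371, 356 and 357 CPM in WT ascending aorta. Smad5, which transduces BMP signals, had 82.9, 85.1, 87.7 and 91.3 CPM in C1041G/+ against 90.7, 94.2, 96.2 and 100.3 CPM in WT ascending aorta. Smad4, the partner of all receptor-regulated SMADs, had 83.6, 81, 83.7 and 91.9 CPM in C1041G/+ against 90.5, 84.4, 82.5 and 89.5 CPM in WT ascending aorta. The groups overlapped for Ski and Smad4, and for Smad5 at 91.3 CPM in mutant 8 and 90.7 CPM in WT 1.

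The type II receptor Tgfbr2, which binds TGF-beta itself, had 238, 236, 311 and 288 CPM in C1041G/+ against 255, 228, 296 and 302 CPM in WT ascending aorta. The BMP receptor Bmpr1a had 269.7, 315, 357 and 352 CPM in C1041G/+ against 393, 322, 408 and 370.2 CPM in WT. Id3, a dominant-negative helix-loop-helix factor, had 297, 228, 240.4 and 293 CPM in C1041G/+ against 269, 285, 208 and 263 CPM in WT. Each of these groups overlapped, with the lowest Bmpr1a value in mutant 2 and the highest in WT 5.

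The effect of the Fbn1 mutation was tested first in the ascending aorta, where dilatation occurs in this model. Of the 50 members, 5 passed the test there (10% of the members; 2.19% of all 15645 genes tested): Lrrc32, Tgfb3 and Inhba were higher in C1041G/+ mice, and Ltbp4 and Bmpr1b were lower. Over all genes, 1.18% were called higher and 1% lower. The members were chosen with earlier results of these data known. They are also more abundant, with a median of 86.9 CPM in the untreated libraries against 18.7 CPM for all tested genes. The shares here and below are therefore not set against a like set of genes. The median log2 fold change was -0.04 over the members and -0.01 over all genes tested. The test was the edgeR quasi-likelihood F test with Benjamini-Hochberg adjustment over all genes, with a call at an adjusted p below 0.05.

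Lrrc32, also called GARP, anchors latent TGF-beta on the cell surface (ENSMUSG00000090958, chromosome 7, 98489283 to 98502181, + strand, GRCm38). It had 135, 102, 123 and 128 CPM in C1041G/+ ascending aorta, against 69.1, 56.6, 54.5 and 76.7 CPM in WT ascending aorta. Every mutant library exceeded every WT library, and the mutant mean was 1.9 times that of WT. The log2 fold change was 0.93 ± 0.12 (SE; 95% interval 0.66 to 1.19), with an edgeR adjusted p of 0.000516. This call held in all 18 alternative fits tried, with adjusted p between 1.7e-09 and 0.0283.

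Tgfb3, the most abundant TGF-beta ligand here (ENSMUSG00000021253, chromosome 12, 86056745 to 86079041, - strand), had 410.4, 367, 325 and 289 CPM in C1041G/+ ascending aorta, against 225, 229, 203 and 235 CPM in WT ascending aorta. The groups did not overlap; mutant 2 was highest and mutant 8 lowest of the mutants. The log2 fold change was 0.64 ± 0.11 (SE), with an edgeR adjusted p of 0.00481. Inhba encodes the chain that pairs to form activin A (ENSMUSG00000041324, chromosome 13, 16011851 to 16031621, + strand). It had 219.7, 244, 279 and 268 CPM in C1041G/+ ascending aorta, against 153, 158, 193 and 197 CPM in WT ascending aorta, again without overlap. Its log2 fold change was 0.53 ± 0.10 (SE), with an edgeR adjusted p of 0.00711.

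Ltbp4 (ENSMUSG00000040488, chromosome 7, 27305136 to 27337692, - strand) had 1297, 1272, 1516 and 1508 CPM in C1041G/+ ascending aorta, against 1939, 1627, 1806 and 2062 CPM in WT ascending aorta. All mutant libraries lay below all WT libraries, and WT 7 was the highest. The log2 fold change was -0.41 ± 0.09 (SE), with an edgeR adjusted p of 0.0217. The edgeR adjusted p was 0.0816 without mutant 2, 0.0717 without mutant 4, 0.0561 without WT 1 and 0.0768 without WT 7, so that each of these libraries decides the call. In an edgeR fit of the 2 compared groups alone the adjusted p of Ltbp4 was 0.0836. Bmpr1b, a type I receptor for BMPs and GDFs (ENSMUSG00000052430, chromosome 3, 141837136 to 142169425, - strand), had 31.7, 28.7, 25.5 and 33.3 CPM in C1041G/+ ascending aorta, against 87.1, 55.9, 53.7 and 53.8 CPM in WT ascending aorta. The groups did not overlap, and WT 1 stood far above the other WT libraries. The log2 fold change was -1.07 ± 0.22 (SE), with an edgeR adjusted p of 0.0202. Without mutant 2, 4 or 6 the edgeR adjusted p was 0.0621, 0.0641 and 0.059, and the log2 fold change stayed negative.

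Promoters of 2 of the called members are shown as the 250 bases before a RefSeq transcription start (GRCm38.p6). Counts are per gene, so the start in use is not known. The annotated Bmpr1b gene, on the - strand, begins further upstream than the printed stretch, at 142169425. The table used holds starts for 36 of the 50 members, and Inhba and the most upstream of the 3 listed starts of Bmpr1b are printed; the 3 listed starts of Ltbp4 are not. Capitals mark CAGAC or its complement GTCTG, a core SMAD binding element, and GGCGCC, a GC-rich SMAD site that reads the same on both strands. The first motif was in 42.2% and the second in 9.59% of all 32851 promoter stretches of this length, and in 49% and 20.4% of the 49 stretches of members. A match is a description of letters and not a binding site.
Inhba (chr13:16011601-16011850, + strand): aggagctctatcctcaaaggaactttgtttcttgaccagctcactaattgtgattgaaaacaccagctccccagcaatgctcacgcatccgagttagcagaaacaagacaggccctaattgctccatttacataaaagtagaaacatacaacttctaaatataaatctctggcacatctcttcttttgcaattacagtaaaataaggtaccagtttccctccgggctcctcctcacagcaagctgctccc
Bmpr1b (chr3:141982265-141982514, - strand): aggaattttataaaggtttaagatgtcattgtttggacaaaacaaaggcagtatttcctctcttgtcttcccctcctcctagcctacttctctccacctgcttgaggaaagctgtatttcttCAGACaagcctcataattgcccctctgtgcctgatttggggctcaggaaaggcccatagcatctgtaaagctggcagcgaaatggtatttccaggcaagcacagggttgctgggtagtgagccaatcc
The Bmpr1b stretch holds 1 CAGAC and the Inhba stretch neither motif, and 2 of the 3 stretches of Ltbp4 hold 1 GGCGCC each and no CAGAC. Those 2 Ltbp4 stretches overlap and hold the same site, which the shares above count for each stretch.

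**Figure D2:**
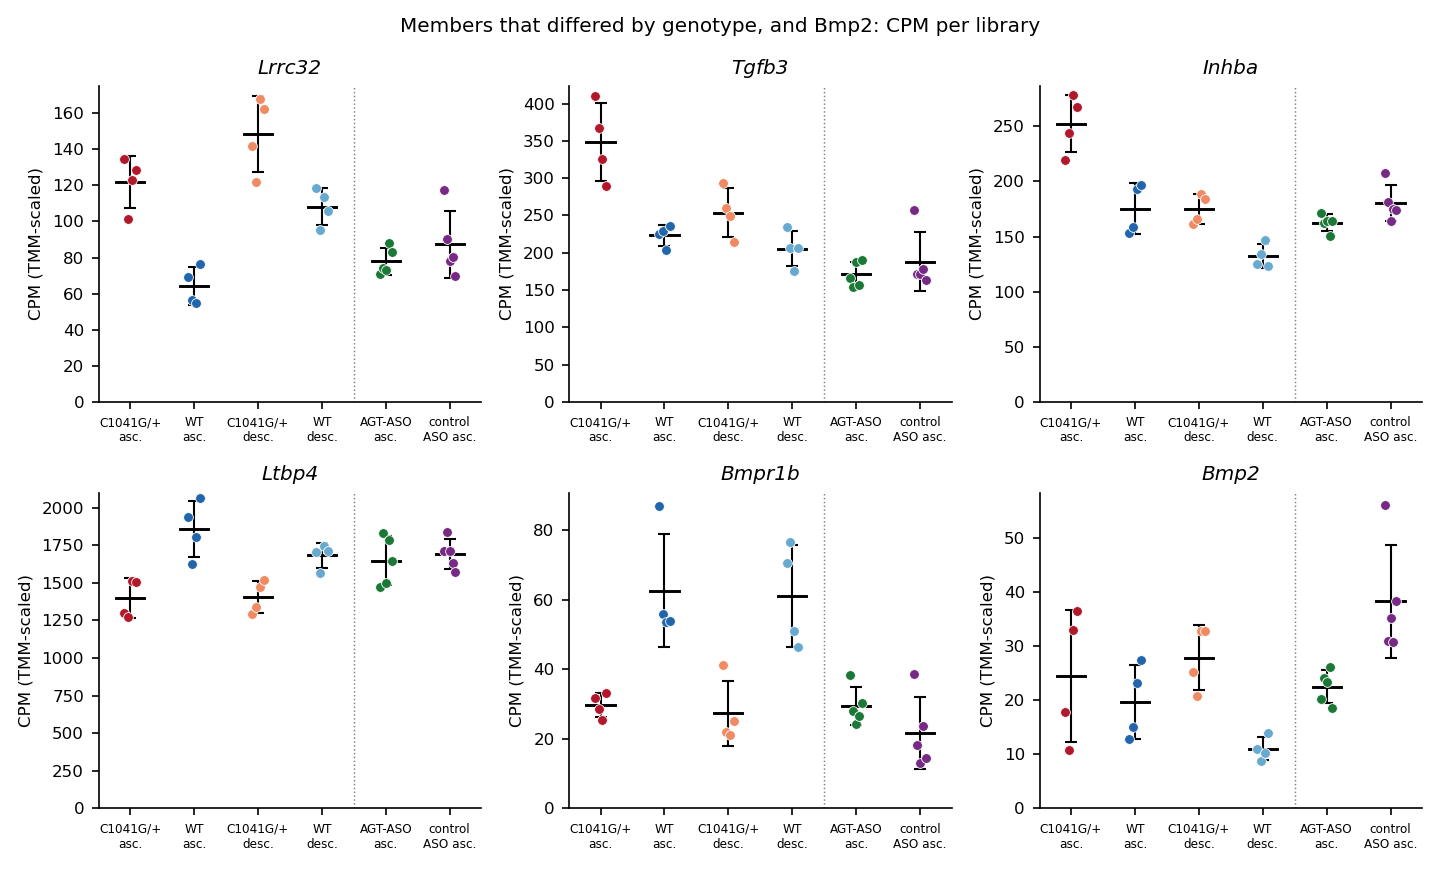
CPM per library (y axis, from 0) of the 5 members that differed by genotype and of Bmp2, in the 6 groups; points are libraries, the horizontal line is the group mean and the bar its SD (n = 4, or 5 for the ASO groups, right of the dotted line). Lrrc32, Tgfb3 and Inhba lie higher and Ltbp4 and Bmpr1b lower in C1041G/+ than in WT ascending aorta, with no overlap.

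The other ligands did not pass the edgeR test in the ascending aorta. DESeq2 called 7 members, against 4.7% of genes, the 5 above with Tgfb2 (adjusted p = 0.0351) and Bmp3. Tgfb2, which is made by smooth muscle and endothelial cells, had 143, 93.1, 127 and 151 CPM in C1041G/+ against 90.4, 61.9, 86.4 and 101 CPM in WT ascending aorta. The groups overlapped in 1 place, between mutant 4 and WT 7, and the log2 fold change was 0.60 ± 0.19 (SE) with an edgeR adjusted p of 0.113. Tgfb1 had 57.1, 47.9, 57 and 50.6 CPM in C1041G/+ against 43.4, 47.5, 54.3 and 58.3 CPM in WT, a difference of 0.06 ± 0.10 on the log2 scale (SE). Bmp3, a ligand that opposes BMP signals, had 25.8, 27.2, 32.6 and 41.2 CPM in C1041G/+ against 53.3, 44.9, 53.9 and 52.6 CPM in WT, without overlap. Its edgeR adjusted p was 0.0566, against 0.0105 by DESeq2 and 0.0212 by edgeR without mutant 8.

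No receptor other than Bmpr1b, no SMAD, no Id gene and no feedback regulator passed the edgeR test in the ascending aorta. The log2 fold changes of the 9 other type I and type II receptors lay between -0.33 and 0.08, and those of the 8 SMADs between -0.33 and 0.12. The Id genes lay between -0.19 and 0.05 and the feedback regulators between -0.18 and 0.07. The co-receptors Tgfbr3 (betaglycan) and Eng had log2 fold changes of -0.40 ± 0.22 and -0.31 ± 0.10 (SE), with edgeR adjusted p of 0.387 and 0.128; without WT 1 that of Eng was 0.0327. For Smad6 the 95% interval of the log2 fold change, -1.11 to 0.45, was wider than that of Smad4, -0.16 to 0.11.

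Marker levels moved with genotype in the ascending aorta. Cartilage markers summed to 10.6 to 48.1 CPM in C1041G/+ and 44.3 to 172.9 CPM in WT ascending aorta, 2 of 10 tested markers of the list of 12 were called lower, and Matn1 was at 0 in both groups. Fibroblast markers summed to 4322 to 5202 CPM in C1041G/+ and 5834 to 7683 CPM in WT (1 of 10 called higher, 1 lower), and macrophage markers to 936.3 to 1283 and 749.9 to 861 CPM (none of 10 called). Heart muscle markers summed to 315.8 to 691 CPM in C1041G/+ and 291 to 1229 CPM in WT, with 1 of 14 called lower and none at 0. When the heart muscle score was added to a fit of the 8 ascending libraries, 2 members stayed called, Lrrc32 and Bmpr1b, against 0.572% of 15046 genes. In that edgeR fit the log2 fold change of Tgfb3 was 0.58 (adjusted p = 0.0787), that of Inhba 0.56 (adjusted p = 0.0983) and that of Ltbp4 -0.43 (adjusted p = 0.188). The part of cartilage, fibroblast and macrophage content in these results was not tested.

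In the descending aorta 1 of the 50 members passed the test between C1041G/+ and WT mice (2% of the members; 1.21% of all genes, 0.678% higher and 0.531% lower). This was Bmpr1b, with 41.1, 21.9, 21.2 and 25 CPM in C1041G/+ descending aorta, against 70.5, 76.6, 50.9 and 46.5 CPM in WT descending aorta. The groups did not overlap, the log2 fold change was -1.16 ± 0.23 (SE), and the edgeR adjusted p was 0.0164. The edgeR adjusted p was 0.0529 without WT 3, and 0.0584, 0.0609 and 0.0639 without mutant 4, 6 or 8. These libraries decide the call, at log2 fold changes between -1.12 and -1.04.

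Bmp2, a BMP ligand, had the largest fitted difference in the descending aorta. It had 25.2, 20.7, 32.8 and 32.8 CPM in C1041G/+ descending aorta, against 11, 8.79, 10.3 and 13.9 CPM in WT descending aorta. No library of 1 group reached the other, yet the edgeR adjusted p was 0.087 at a log2 fold change of 1.34 ± 0.34 (SE). By DESeq2, which called 2.57% of genes, 4 members passed: Bmp2 (adjusted p = 0.0124), Inhba (0.00709) and Lrrc32 (0.0258) were higher and Bmpr1b was lower. In an edgeR fit of the 2 descending groups alone, which called 1.11% of genes, the called members were Bmp2 (adjusted p = 0.00381) and Inhba (0.0406), and Bmpr1b was not called (0.0814).

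Inhba had 161, 166, 188 and 184 CPM in C1041G/+ against 125, 134, 146 and 124 CPM in WT descending aorta, without overlap. Its log2 fold change was 0.40 ± 0.10 (SE), and its edgeR adjusted p 0.0562, or 0.0436 without WT 5. Lrrc32 had 142, 122, 168 and 162 CPM in C1041G/+ against 118, 95.3, 114 and 106 CPM in WT descending aorta, also without overlap, at an adjusted p of 0.0926 by edgeR, or 0.0457 without mutant 4. Ltbp4 had 1294, 1343, 1475 and 1519 CPM in C1041G/+ against 1709, 1564, 1744 and 1715 CPM in WT descending aorta, without overlap, and an edgeR adjusted p of 0.239. These 3 members thus lay on the same side of WT in the descending as in the ascending aorta, but did not pass the test there. The libraries of the 2 regions share numbers, so the regions may not be independent. Tgfb3 had 293, 259, 248.5 and 215 CPM in C1041G/+ against 234, 207, 176 and 206 CPM in WT descending aorta. These groups overlapped, and Tgfb3 was not called there. The median log2 fold change was 0.00 over the members and over all genes.

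Whether the genotype effect differed between the regions was tested as an interaction. No member was called (0 of 50; 0.00639% of all genes), by edgeR or by DESeq2, and 5 members had an unadjusted p below 0.05 with edgeR: Lrrc32, Smad5, Ltbp3, Tgfb3 and Bmp2. The largest by p was Lrrc32, whose genotype effect was larger in the ascending aorta by 0.47 ± 0.17 on the log2 scale (SE; 95% interval 0.10 to 0.84; edgeR adjusted p = 0.76). By edgeR, the difference for Tgfb3 was 0.34 ± 0.16 (SE; adjusted p = 0.966), and for Bmp2 it was -1.02 ± 0.48 (SE; adjusted p = 0.966). A genotype effect past the threshold in 1 region only is therefore not shown to differ between the regions.

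**Figure D3:**
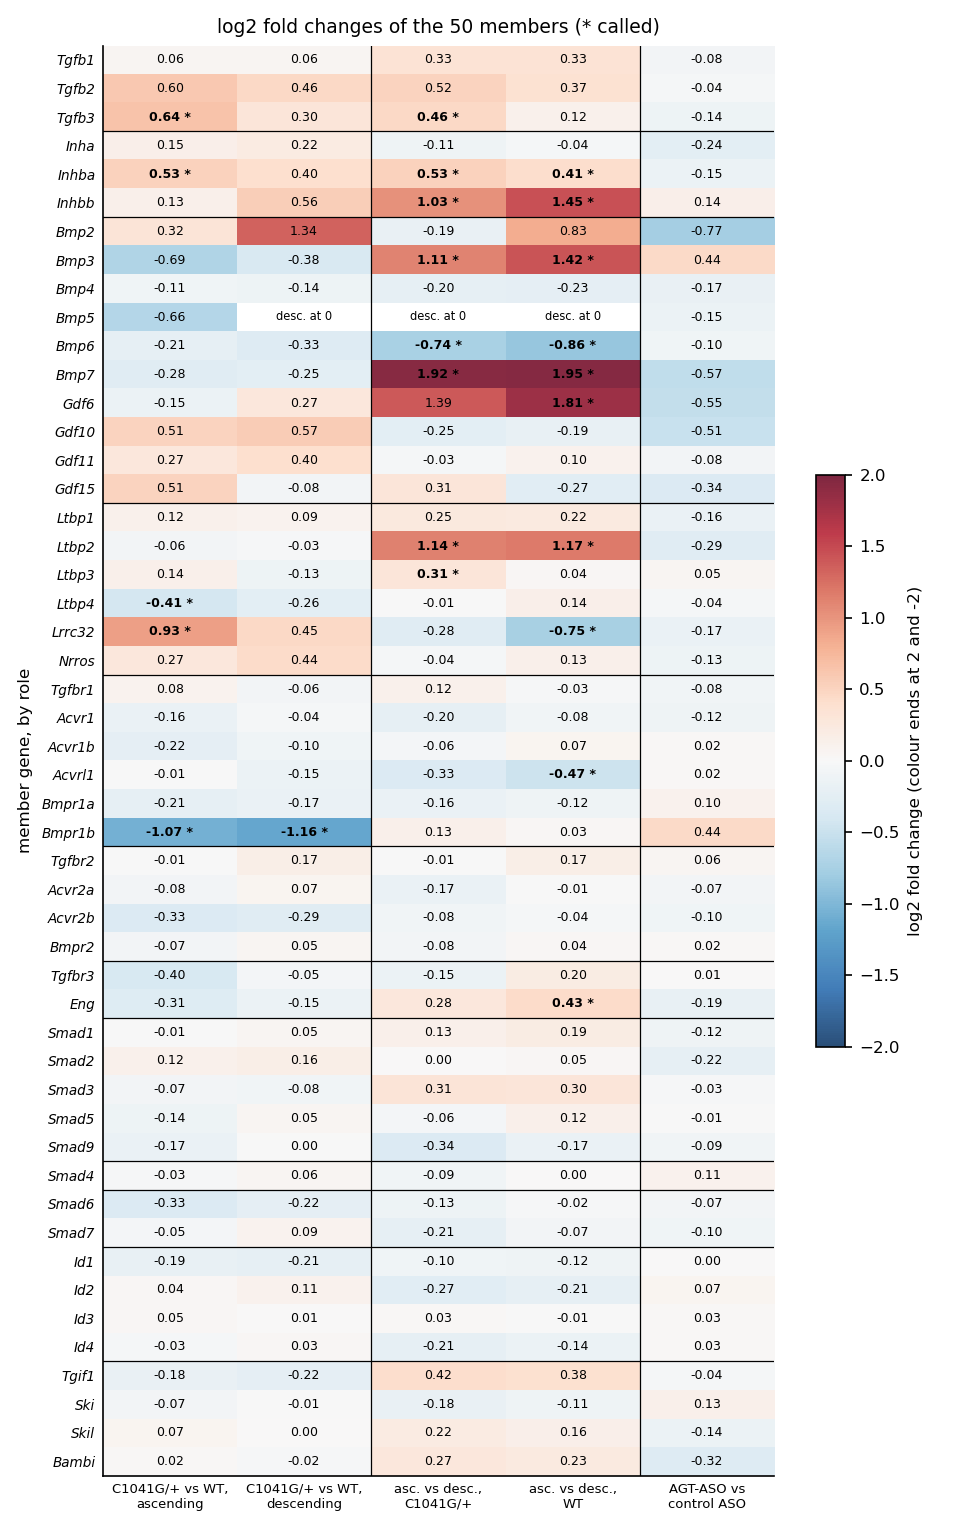
log2 fold changes of the 50 members, in rows by role, for the 5 pairwise comparisons, in columns; red is higher and blue lower in the first-named group, and bold values with a star had an adjusted p below 0.05 (edgeR). SMADs, Id genes and feedback regulators hold no star, and the region columns hold the strongest colours; Bmp5 has no value where the descending libraries are at 0.

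Other genes of the pathway were taken from lists chosen with earlier results of these data known. In the ascending aorta 6 of 30 TGF-beta target genes were higher and 1 was lower in C1041G/+ mice, where 1.18% of all genes were called higher and 1% lower, with a median log2 fold change of 0.15 against -0.01 for all genes. The matrix glycoprotein gene Tnc had 106 ± 13.6 CPM in C1041G/+ and 39.6 ± 10.8 CPM in WT (SD, n = 4 each), a log2 fold change of 1.42 ± 0.17 (SE; edgeR adjusted p = 0.000228). Fibronectin (Fn1) had 1993 ± 48.1 and 1053 ± 158 CPM in the same groups (SD), a change of 0.92 ± 0.12 (SE). Ccn2, connective tissue growth factor, had 2934 ± 529.6 CPM in C1041G/+ and 1652 ± 239 CPM in WT (SD), a change of 0.83 ± 0.14 (SE). The edgeR adjusted p was 0.000516 for Fn1 and 0.00367 for Ccn2.

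Among 18 genes of latent TGF-beta release, 1 of the 16 tested was called in the ascending aorta. This was the protease gene Plau, at 22.1 ± 8.92 CPM in C1041G/+ and 8.28 ± 3.53 CPM in WT (SD, n = 4 each; edgeR adjusted p = 0.0317). Of 8 tested BMP targets other than Id genes, Hey1 was lower, at 6.91 ± 0.858 CPM in C1041G/+ and 11.1 ± 1.51 CPM in WT (SD; edgeR adjusted p = 0.0414). None of 13 tested secreted antagonists, 18 intracellular SMAD regulators and 9 tested further ligands and receptors was called there. In the descending aorta 3 of the 13 antagonists were higher in C1041G/+ mice, where 0.678% of all genes were called higher. Chrdl1 had 78.6 ± 8.74 CPM in C1041G/+ and 36.2 ± 6.86 CPM in WT (SD, n = 4 each), Fst, the activin-binding follistatin, 16.6 ± 3.63 and 7.6 ± 1.63 CPM, and Grem1 2.34 ± 1.1 and 0.0813 ± 0.0699 CPM. Their edgeR adjusted p were 9.02e-05, 0.000642 and 0.00129. The only TGF-beta target called in the descending aorta was Fn1, at 2695 ± 289.8 CPM in C1041G/+ and 1786 ± 301 CPM in WT (SD; edgeR adjusted p = 0.0194).

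The 2 regions of the aorta differ in embryonic origin, and the members were compared between ascending and descending aorta within each genotype. In C1041G/+ mice 8 of 50 members were called (16%; 9.92% of all genes), 7 higher and 1 lower in the ascending aorta, against 6.41% of genes higher and 3.51% lower. In WT mice 11 were called (22%; 11.1% of all genes), 8 higher and 3 lower, against 7.82% and 3.31% of genes. The comparisons share no library, but both come from 1 fit in which the 4 untreated groups share 1 estimate of the spread. Ltbp2, Bmp3, Bmp7, Inhbb, Inhba and Bmp6 were called in both, which is 75% of the members called in C1041G/+ mice and 54.5% of those called in WT mice. The like share over all genes is not given here. The median log2 fold change over the members was -0.02 in C1041G/+ mice and 0.06 in WT mice, each near the -0.01 of all genes.

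Ltbp2, a microfibril-associated member of the LTBP family that does not bind latent TGF-beta, had the smallest adjusted p in both genotypes. In C1041G/+ mice it had 171, 170.2, 175 and 172 CPM in ascending aorta, against 84.8, 84.8, 80.7 and 62.7 CPM in descending aorta. In WT mice it had 163, 144, 221 and 191 CPM in ascending aorta, against 82.6, 77, 82.6 and 77 CPM in descending aorta. The regions were far apart in every library, with log2 fold changes of 1.14 ± 0.11 and 1.17 ± 0.11 (SE) in C1041G/+ and WT mice. The edgeR adjusted p were 1.35e-06 and 8.52e-07.

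Both activin beta chains were higher in the ascending aorta. Inhba had the CPM given above for the 4 groups, and its regional log2 fold change was 0.53 ± 0.10 (SE) in C1041G/+ and 0.41 ± 0.10 (SE) in WT mice, with edgeR adjusted p of 0.00129 and 0.00945. Inhbb, the chain of activin B, had 29.3, 27.6, 21.3 and 22 CPM in ascending aorta of C1041G/+ mice, against 14.7, 16.6, 8.37 and 9.59 CPM in their descending aorta. In WT mice it had 26.9, 23.6, 20.7 and 20.2 CPM in ascending aorta, against 10.1, 10.3, 7.86 and 5.06 CPM in descending aorta. No region overlapped the other for either gene. The log2 fold changes of Inhbb were 1.03 ± 0.22 and 1.45 ± 0.23 (SE), with edgeR adjusted p of 0.00519 and 0.000261.

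Among the BMP and GDF ligands, Bmp3, Bmp7, Gdf6 and Bmp5 lay higher in the ascending aorta and Bmp6 lower. Bmp3 had 14.6, 11.4, 17.3 and 15.1 CPM in descending aorta of C1041G/+ mice and 21.1, 26.1, 14 and 15 CPM in descending aorta of WT mice, against which the ascending values given above lay higher throughout. Its log2 fold changes were 1.11 ± 0.19 and 1.42 ± 0.19 (SE) in C1041G/+ and WT mice, with edgeR adjusted p of 0.000643 and 4.15e-05. Bmp6, a ligand made by endothelial cells that also controls hepcidin, had 145, 147, 114 and 115 CPM in ascending aorta of C1041G/+ mice, against 239, 216, 213 and 202 CPM in their descending aorta. In WT mice it had 171, 197, 111 and 122 CPM in ascending aorta, against 374, 284, 251 and 183 CPM in descending aorta, where the 2 regions overlapped between ascending WT 3 and descending WT 7. The log2 fold changes were -0.74 ± 0.20 and -0.86 ± 0.20 (SE), with edgeR adjusted p of 0.0242 and 0.0078. In C1041G/+ mice the Bmp6 call was lost without ascending library 6 or 8, or descending library 2 or 4, with adjusted p up to 0.0945 over all alternatives.

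Bmp7 was rare. It had 2.35, 0.978, 0.872 and 0.9 CPM in ascending aorta of C1041G/+ mice, against 0.562, 0.17, 0.32 and 0.292 CPM in their descending aorta. In WT mice it had 1.97, 1.9, 1.02 and 1.39 CPM in ascending aorta, against 0.543, 0.508, 0.116 and 0.421 CPM in descending aorta. The regions did not overlap, but ascending mutant 2 stood far above the other mutants, and without it the edgeR adjusted p in C1041G/+ mice was 0.0636 in place of 0.0115. Gdf6, a GDF ligand of skeletal and eye development, had 29.9, 26.9, 18.9 and 15.1 CPM in ascending and 13.6, 7.21, 1.8 and 3.21 CPM in descending aorta of WT mice, at an edgeR adjusted p of 0.0188, or 0.0552 without descending WT 7. It had 28.4, 17, 16.1 and 20.2 CPM in ascending and 10.9, 7.13, 8.59 and 4.62 CPM in descending aorta of C1041G/+ mice, without overlap but at an adjusted p of 0.0752. Bmp5 had no count in any of the 8 descending libraries, against 53 counts over the C1041G/+ and 87 over the WT ascending libraries. Set against a group total of 3 counts as the floor, its pooled CPM was at least 16.2-fold higher in the ascending aorta of C1041G/+ mice and at least 26.8-fold higher in that of WT mice. Single ascending libraries held 16, 0, 30 and 7 Bmp5 counts in C1041G/+ and 2, 19, 33 and 33 in WT mice. In C1041G/+ mice Bmp5 did not pass the edgeR test of all libraries. It passed there by DESeq2 (adjusted p = 0.000875), and by edgeR without ascending mutant 4 (0.0168) or with robust estimation off (0.0485). The call of Bmp5 in WT mice was lost when ascending 3, 5 or 7, or any 1 of the 4 descending libraries, was left out. With Bmp5 set at these bounds the medians of the members did not move.

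Of the latency and presentation proteins, Lrrc32 was lower in the ascending aorta of WT mice, with the CPM given above, at a log2 fold change of -0.75 ± 0.12 (SE; edgeR adjusted p = 0.000339). In C1041G/+ mice its regional log2 fold change was -0.28 ± 0.12 (SE; edgeR adjusted p = 0.195), and the regions overlapped. Ltbp3 had 509, 472, 507 and 533 CPM in ascending aorta of C1041G/+ mice, against 403, 389, 432 and 408 CPM in their descending aorta, and an edgeR adjusted p of 0.0242. That call was lost when ascending 2 or 8, or descending 2, 4 or 8, was left out, with adjusted p up to 0.0686. Tgfb3, with the values given above, was called higher in the ascending aorta of C1041G/+ mice at 0.46 ± 0.11 (SE; edgeR adjusted p = 0.0128). In WT mice it differed by 0.12 ± 0.11 (SE; edgeR adjusted p = 0.647). Its edgeR adjusted p in C1041G/+ mice was 0.0515 without ascending mutant 2 and 0.0504 without descending mutant 8. In these mice the regions overlapped for Tgfb3, with ascending mutant 8 at 289 CPM and descending mutant 2 at 293 CPM.

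Endothelial members went in both directions in WT mice. Eng had 181, 259, 232 and 228 CPM in ascending aorta, against 189, 166, 153 and 162 CPM in descending aorta, a log2 fold change of 0.43 ± 0.10 (SE; edgeR adjusted p = 0.00785). Acvrl1, the endothelial type I receptor ALK1, had 90.6, 97.3, 69.1 and 82.4 CPM in ascending aorta, against 132, 118, 94.7 and 128 CPM in descending aorta, a log2 fold change of -0.47 ± 0.12 (SE; edgeR adjusted p = 0.0122). The regions overlapped between ascending and descending WT 1 for Eng, and between ascending WT 3 and descending WT 5 for Acvrl1. Without ascending WT 5 the adjusted p of Acvrl1 was 0.0529. Endothelial markers summed to 1537 to 2047 CPM in ascending and 2491 to 3354 CPM in descending aorta of WT mice, with 2 of 10 called higher, 5 called lower and none at 0; their part in these results was not tested.

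Mesothelial, heart muscle and cartilage markers differed between the regions. Mesothelial markers summed to 388.4 to 646.7 CPM in ascending and 22.2 to 39.6 CPM in descending aorta of C1041G/+ mice, with all 10 called higher. In WT mice they summed to 346.1 to 480.2 and 20.9 to 32.7 CPM, with 9 of 10 called higher. Heart muscle markers summed to 315.8 to 691 CPM in ascending and 129.1 to 249.2 CPM in descending aorta of C1041G/+ mice (7 of 14 called higher), and to 291 to 1229 and 77.2 to 148.9 CPM in WT mice (11 of 14 called higher). Cartilage markers summed to 10.6 to 48.1 CPM in ascending and 12.9 to 16.1 CPM in descending aorta of C1041G/+ mice (4 of 10 tested called higher), and to 44.3 to 172.9 and 18.7 to 21.3 CPM in WT mice (7 of 10 called higher). Genes on the opposite strand overlap exons of Tgfb2, Tgfb3, Bmp4, Bmp5, Bmp6, Ltbp2, Ltbp3, Acvrl1, Bmpr1a, Acvr2a, Eng and Id4. The strand setting of the counts is unknown, which limits every comparison of these members. No mesothelial or heart muscle marker was at 0 in a whole group, while of 12 cartilage markers Matn1 was at 0 in both ascending groups and Col9a2 and Cnmd in descending WT aorta, and the part of such tissue in the regional results was not tested.

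Other genes of the pathway also differed between the regions, in the lists chosen with earlier results known. Over all genes, 6.41% were called higher and 3.51% lower in C1041G/+ mice, and 7.82% and 3.31% in WT mice. Of 13 tested secreted antagonists, 2 were higher and 5 lower in the ascending aorta of C1041G/+ mice, and 2 were higher and 1 lower in WT mice. Vwc2, a BMP antagonist, had 31.6 ± 4.44 CPM in ascending and 93 ± 13.3 CPM in descending aorta of C1041G/+ mice, and 24.2 ± 5.69 and 80.4 ± 14.5 CPM in WT mice (SD, n = 4 each). Gdf2, the ligand BMP9, had 5.04 ± 0.445 CPM in ascending and 0.0541 ± 0.0754 CPM in descending aorta of C1041G/+ mice, and 5.13 ± 0.874 and 0.0789 ± 0.0527 CPM in WT mice (SD). The edgeR adjusted p of Vwc2 was 4.93e-06 in C1041G/+ and 1.47e-06 in WT mice, and that of Gdf2 3.5e-08 and 3.72e-08. Among 16 tested genes of latent TGF-beta release, 4 were higher and 1 lower in the ascending aorta of C1041G/+ mice, and 3 were higher and none lower in WT mice. The integrin gene Itgb8, whose product releases TGF-beta from its latent complex, was among those higher in both, at 23.6 ± 7.68 CPM in ascending and 8.13 ± 2.29 CPM in descending aorta of C1041G/+ mice (SD, n = 4 each).

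Among 8 tested BMP targets other than Id genes, 2 were higher and 2 lower in the ascending aorta of C1041G/+ mice, and 1 was higher and 1 lower in WT mice. Msx1, a homeobox gene induced by BMPs, had 21.9 ± 1.36 CPM in ascending and 10.1 ± 1.05 CPM in descending aorta of C1041G/+ mice (SD, n = 4 each; edgeR adjusted p = 2.27e-06). Of the 30 TGF-beta targets, 5 were higher and 4 lower in C1041G/+ mice, and 3 were higher and 3 lower in WT mice. Of the 18 intracellular SMAD regulators none was called in C1041G/+ mice and 1, Wwp2, was lower in the ascending aorta of WT mice. Beside these counts, 6.41% of all genes were called higher and 3.51% lower in C1041G/+ mice, and 7.82% and 3.31% in WT mice.

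**Figure D4:**
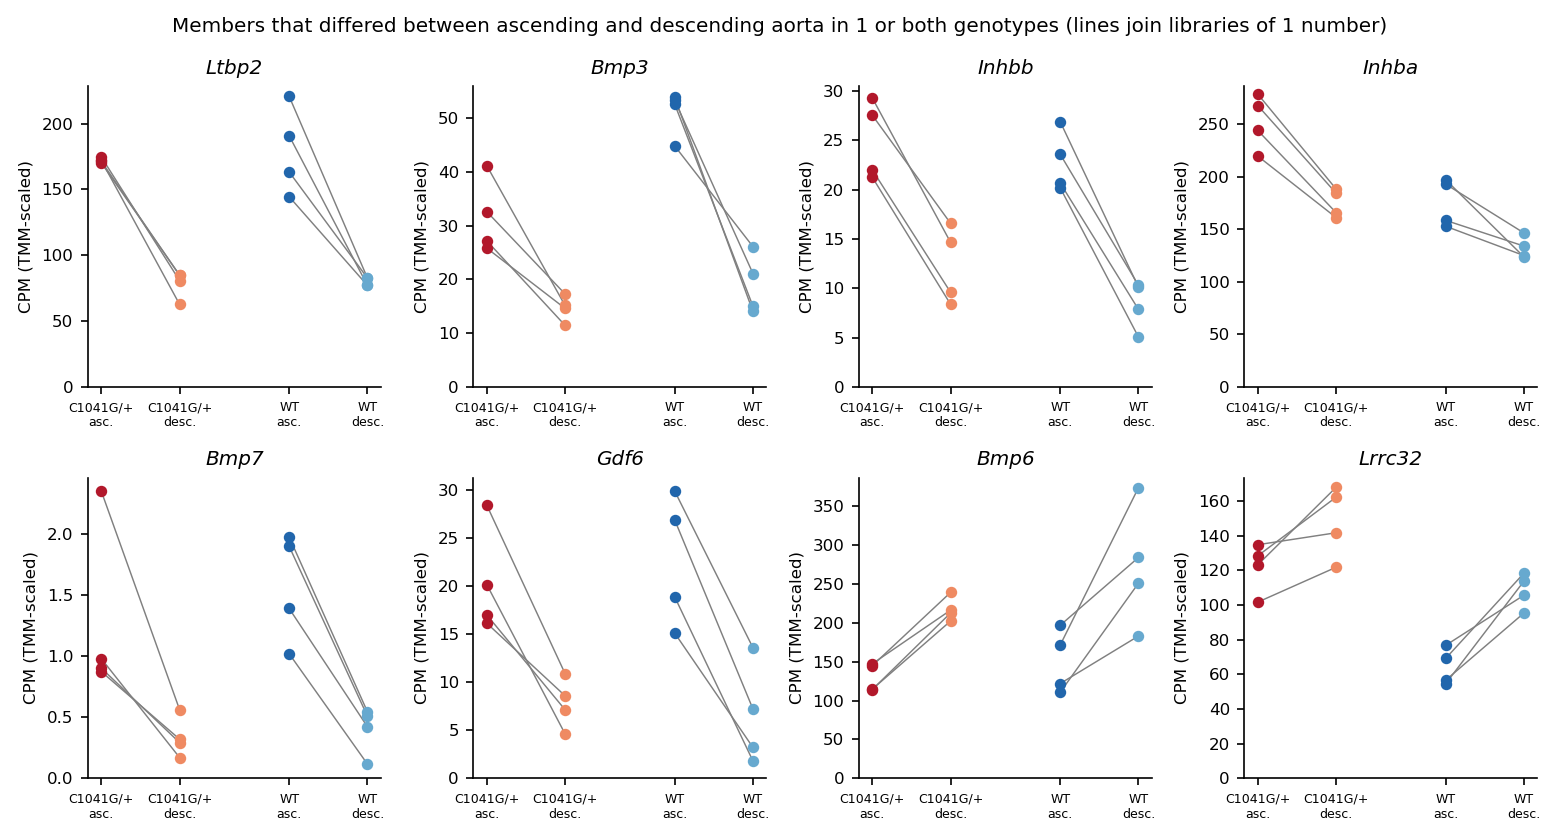
CPM (y axis, from 0) of 8 members that differed between ascending and descending aorta in C1041G/+ mice (left in each panel) or WT mice (right); points are libraries and grey lines join the ascending and descending libraries of the same number. Ltbp2, Bmp3, Inhbb, Inhba, Bmp7 and Gdf6 lie higher in the ascending library of every pair, and Bmp6 and Lrrc32 lie higher in the descending library of every pair.

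The ascending and descending libraries share numbers, and a fit that compares the regions within each number called more members in C1041G/+ mice. With the number as a fixed replicate block, 25 of the 50 members were called there, 16 higher and 9 lower, against 18.6% of 14754 genes; unpaired, 8 were called. The members gained include Tgfb2 (log2 fold change 0.53 ± 0.06, SE; adjusted p = 2.15e-05), Tgfb1 (0.34 ± 0.06; 0.0015), Smad3 (0.32 ± 0.06; 0.00178) and Gdf6 (1.41 ± 0.17; 0.000182), all higher in the ascending aorta, in an edgeR quasi-likelihood fit of the 8 C1041G/+ libraries. Id2 (-0.25 ± 0.06; 0.00988), Lrrc32 (-0.27 ± 0.06; 0.00767) and Acvrl1 (-0.34 ± 0.08; 0.00664) were lower in the same fit (SE; adjusted p). With the number as a random block in limma voom, 15 members were called in C1041G/+ mice, against 13.4% of genes. Of those just named, Tgfb2 (adjusted p = 0.0264), Tgfb1 (0.0115), Gdf6 (0.00692) and Acvrl1 (0.0263) were called by limma there, and Smad3, Id2 and Lrrc32 were not. Without a block, an edgeR fit of the 8 C1041G/+ libraries alone also called Tgfb1 (adjusted p = 0.0281) and Gdf6 (0.00632). In WT mice the fixed block gave 14 called members, against 12.4% of 14994 genes. Among them were Tgfb1, Bmp2, Smad3 and Tgfb2, none of them called in the unpaired edgeR fit of all untreated libraries. Of these 4, Tgfb1 was also called with the random block (limma adjusted p = 0.011). Unpaired, Tgfb1 was called by DESeq2 (adjusted p = 0.0377) and by edgeR without descending WT 7 (adjusted p = 0.0136).

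For several members, a library number that was high in the ascending aorta was high in the descending aorta too, though none passed after adjustment over all genes. The relation was measured over the 8 numbers as the correlation of log2(CPM + 0.5), after the mean of each group was subtracted, and tested by all 576 permutations of numbers within genotype. Over the 49 members with counts in both regions, the median r was 0.64, and 16 (32.7%) had an r of at least 0.8. Over 15626 tested genes the median r was 0.29 and 9.52% reached 0.8; the members are also more abundant, with a median of 86.9 CPM against 18.7 CPM for all tested genes. An exact permutation p of 0.00347 or less was reached by 6 members, Smad6, Id1, Tgfbr3, Id2, Bambi and Smad3 (12.2% of the members), and by 1.59% of all genes. After Benjamini-Hochberg adjustment of the exact permutation p over all 15626 genes no member and no gene passed, and the smallest p that these permutations can give is 0.0017.

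Smad6, the inhibitory SMAD of BMP signalling, ran from 59.7 CPM in ascending WT 7 to 184 CPM in ascending WT 1. In descending aorta the same numbers were lowest and highest, at 58 and 194 CPM. The C1041G/+ libraries lay between, with 108, 115, 72 and 87.7 CPM in ascending and 115, 138, 68.5 and 96.7 CPM in descending aorta. Across the 8 numbers, Smad6 had Pearson r = 0.98 (exact permutation p = 0.00347, adjusted over all genes 0.219) and Spearman rho = 0.88 (exact permutation p = 0.0174, adjusted 0.361). Without the 2 numbers farthest from the median its r was 0.94.

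Id1 was lowest in WT 5, at 74.2 CPM in ascending and 75.4 CPM in descending aorta, and highest in WT 7, at 153 and 193 CPM. Id2 was lowest in WT 7, at 90.6 CPM in ascending and 119 CPM in descending aorta, and WT 1, at 217 and 232 CPM, was the highest WT number for Id2. Thus WT 7 was low for Smad6 and Id2 and high for Id1, and these BMP target genes did not share 1 order of the libraries. Id1 had Pearson r = 0.97 (exact permutation p = 0.00174, adjusted over all genes 0.215) and Spearman rho = 0.93 (exact permutation p = 0.00347, adjusted 0.321). Id2 had Pearson r = 0.94 (exact permutation p = 0.00347, adjusted over all genes 0.219) and Spearman rho = 0.93 (exact permutation p = 0.00694, adjusted 0.349). Their r was 0.94 and 0.97 without the 2 farthest numbers.

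Bambi, a decoy receptor that blocks TGF-beta signalling, had 35.3, 34.3, 60.7 and 49.98 CPM in ascending and 27.5, 31, 52.4 and 38.1 CPM in descending aorta of C1041G/+ mice. In WT mice it had 33.5, 39.6, 53.4 and 50.8 CPM in ascending and 24.8, 28.8, 55.6 and 42.1 CPM in descending aorta. Numbers 5, 6, 7 and 8 were higher than numbers 1 to 4 in both regions. Bambi had Pearson r = 0.93 (exact permutation p = 0.00347, adjusted over all genes 0.219) and Spearman rho = 0.91 (exact permutation p = 0.0139, adjusted 0.349). The co-receptor Tgfbr3 was lowest in number 2 in both regions, at 46.2 and 64.2 CPM, and had an r of 0.94 (exact permutation p = 0.00174, adjusted 0.215) and a rho of 0.93 (exact permutation p = 0.00347, adjusted 0.321). Smad3, the TGF-beta SMAD, was lowest in number 8 of the mutants and number 3 of the WT mice in both regions, and had Pearson r = 0.88 (exact permutation p = 0.00347, adjusted over all genes 0.219) and Spearman rho = 0.88 (exact permutation p = 0.0104, adjusted 0.349). Without the 2 farthest numbers r was 0.88 for Bambi, 0.95 for Tgfbr3 and 0.78 for Smad3.

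The upstream stretches of Id2 and Smad6 are shown, as BMP-responsive genes among these 6 for which the promoter table has an entry (RefSeq, GRCm38.p6; capitals as above).
Id2 (chr12:25096093-25096342, - strand): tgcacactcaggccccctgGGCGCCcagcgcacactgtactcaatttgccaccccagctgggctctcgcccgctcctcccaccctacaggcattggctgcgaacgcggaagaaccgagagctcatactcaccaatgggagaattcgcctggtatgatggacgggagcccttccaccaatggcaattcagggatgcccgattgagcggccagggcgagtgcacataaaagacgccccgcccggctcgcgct
Smad6 (chr9:64022060-64022309, - strand): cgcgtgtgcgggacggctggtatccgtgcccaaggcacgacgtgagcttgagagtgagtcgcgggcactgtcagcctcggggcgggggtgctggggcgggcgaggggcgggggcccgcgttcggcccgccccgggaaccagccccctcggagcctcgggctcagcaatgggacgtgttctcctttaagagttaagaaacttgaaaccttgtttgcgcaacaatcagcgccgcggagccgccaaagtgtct
The Id2 stretch holds 1 GGCGCC and the Smad6 stretch neither motif.

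**Figure D5:**
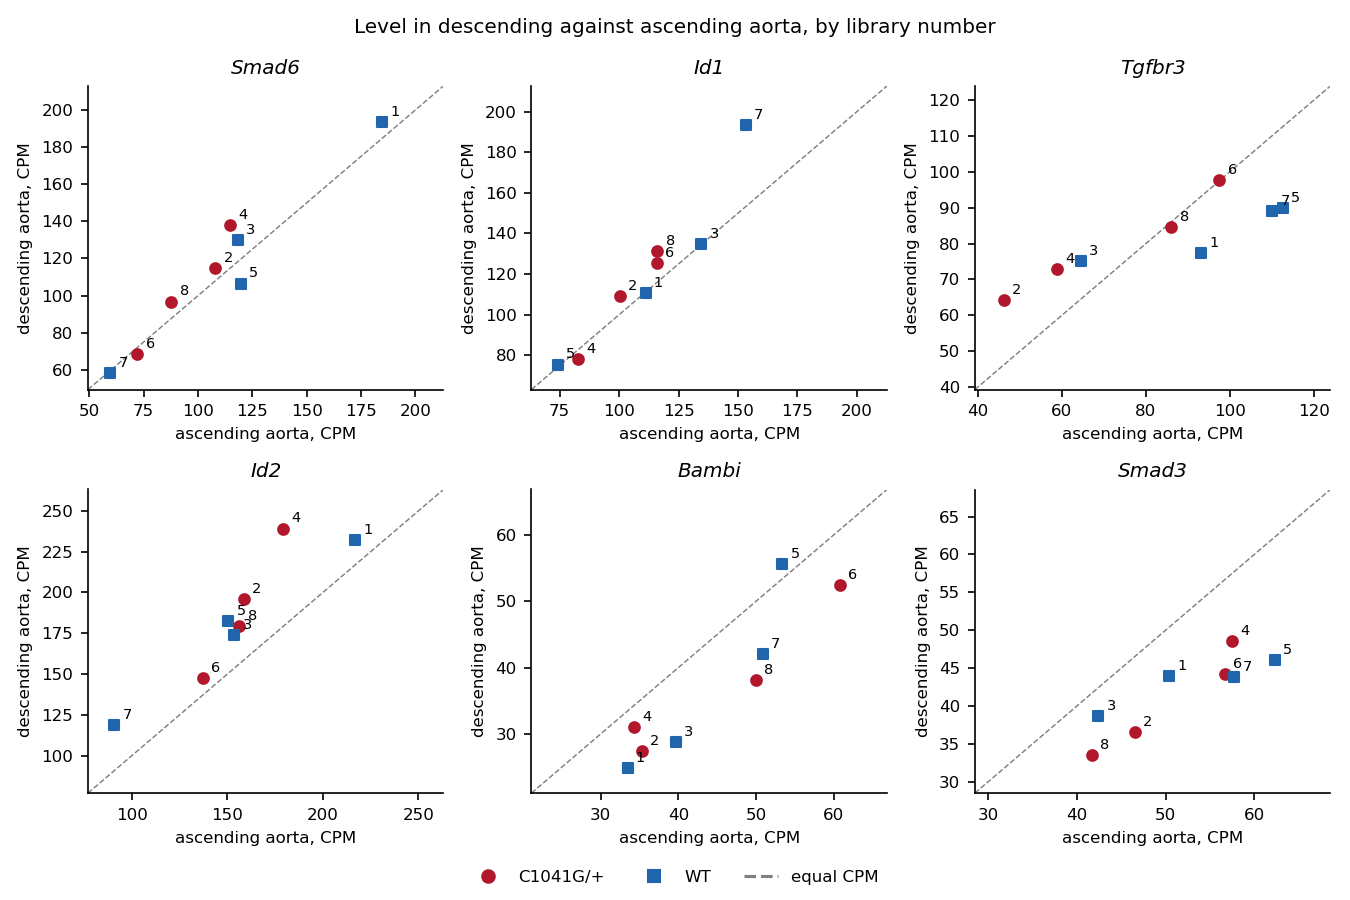
CPM in descending (y axis) against ascending aorta (x axis) of the 6 members with the smallest p for going with the library number, 1 point per number, circles for C1041G/+ and squares for WT, with a dashed line at equal CPM; the axes do not start at 0. Smad6 runs from number 7 at the bottom left to number 1 at the top right, while Id1 has number 7 at the top.

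The effect of AGT-ASO was compared with control ASO in the ascending aorta of C1041G/+ mice. No member was called (0 of 50; 0.0668% of 14981 genes) by edgeR, and 6 had an unadjusted p below 0.05: Bmp2, Gdf10, Ltbp2, Smad2, Bmp3 and Inhba. By DESeq2, which called 1.71% of genes, 3 members were lower with AGT-ASO: Bmp2 (adjusted p = 0.000846), Gdf10 (0.00524) and Ltbp2 (0.0436). The median log2 fold change was -0.08 over the members and -0.01 over all genes, and 34 of the 50 members had a negative one.

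Bmp2 had 20.2, 24.1, 23.4, 26.1 and 18.6 CPM with AGT-ASO, against 56.1, 30.9, 35.2, 30.7 and 38.4 CPM with control ASO. The groups did not overlap, and control 8 was the highest library. The log2 fold change was -0.77 ± 0.16 (SE; edgeR adjusted p = 0.101), and without control 8 it was -0.59 with an adjusted p of 0.0171. Gdf10, a ligand of the TGF-beta superfamily also called BMP3B, had 150.3, 111, 147, 157 and 179.7 CPM with AGT-ASO, against 196, 224, 252, 176 and 214 CPM with control ASO. The groups overlapped at AGT-ASO 20 and control 16, and the log2 fold change was -0.51 ± 0.12 (SE; edgeR adjusted p = 0.117). Ltbp2 had 149, 166, 142, 145 and 159 CPM with AGT-ASO, against 202, 194, 199.6, 169 and 163 CPM with control ASO, with overlapping groups, at -0.29 ± 0.07 on the log2 scale (SE; edgeR adjusted p = 0.148).

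The 5 members called by genotype in untreated ascending aorta did not pass the test between the ASO groups. Lrrc32 had 71.1, 74.1, 72.9, 87.9 and 83.1 CPM with AGT-ASO, against 118, 90.1, 78.1, 80.5 and 69.8 CPM with control ASO, a log2 fold change of -0.17 ± 0.12 (SE; 95% interval -0.42 to 0.09). Tgfb3 had 166, 154, 187, 157 and 190.2 CPM with AGT-ASO, against 258, 171, 171, 178 and 163 CPM with control ASO, a change of -0.14 ± 0.12 (SE; 95% interval -0.39 to 0.11). For both genes the groups overlapped, and control 8 was the highest library. Inhba had 172, 162, 164, 150.5 and 164 CPM with AGT-ASO, against 208, 181, 164, 175 and 174 CPM with control ASO, a change of -0.15 ± 0.07 (SE; edgeR adjusted p = 0.381). Ltbp4 had 1472 to 1835 CPM with AGT-ASO and 1575 to 1838 CPM with control ASO, and Bmpr1b 24.3 to 38.4 and 12.9 to 38.8 CPM. Their log2 fold changes were -0.04 ± 0.09 and 0.44 ± 0.29 (SE), with edgeR adjusted p of 0.894 and 0.582. No gene of the 6 pathway and target lists was called between the ASO groups by edgeR.

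The SMADs, Id genes and receptors of the ASO groups lay close to each other. Log2 fold changes were between -0.22 and 0.11 for the 8 SMADs, between 0.00 and 0.07 for the 4 Id genes, and between -0.12 and 0.10 for the receptors other than Bmpr1b. Heart muscle markers tended to be lower with AGT-ASO: they summed to 332.4 to 764.3 CPM with AGT-ASO and 758.3 to 1708 CPM with control ASO, with overlap. None of 13 tested markers was called and none of 14 was at 0. Control 8 stood apart for several members, with 68.4 CPM of Bambi, against 32.9 to 39.1 CPM in the other 4 control libraries, and 58.3 CPM of Smad6, against 142.3 to 161.9 CPM. Mitochondrial genes took 3.76% to 6.996% of counts with AGT-ASO and 5.52% to 11.1% with control ASO, beside 2.51% to 3.22% in untreated C1041G/+ ascending aorta. With the heart muscle score added to the edgeR fit of the ASO libraries, no member was called, and 7 of 14981 genes were. The part of the mitochondrial share in the ASO results was not tested.

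The ascending libraries of the untreated and the ASO experiment were both C1041G/+ but were normalised apart, and treatment and experiment cannot be told apart between them. Bmp6 had 10.8 to 28.4 CPM with AGT-ASO and 12.7 to 25.3 CPM with control ASO, beside 114 to 147 CPM in untreated C1041G/+ ascending aorta. Bmp4, a BMP ligand, had 24.2 to 33.9 and 32.4 to 41.3 CPM in the ASO groups, beside 83.2 to 115 CPM untreated. Gdf6 had 1.62 to 3.65 and 1.08 to 7.14 CPM, beside 16.1 to 28.4 CPM untreated. Bmp3 ran the other way, with 90.02 to 122 and 52 to 102 CPM in the ASO groups, beside 25.8 to 41.2 CPM untreated. Endothelial markers summed to 193.9 to 467.4 CPM with AGT-ASO and 336.7 to 446.6 CPM with control ASO, beside 1380 to 2191 CPM untreated, and their part in these levels was not tested.

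The remaining members are given by their ranges. Inha, the inhibin alpha chain, had 0.9 to 1.69 CPM in C1041G/+ and 1.01 to 1.86 CPM in WT ascending aorta. Gdf11 had 7.61 to 9.94 and 5.7 to 9.24 CPM, and the stress-induced ligand Gdf15 1.58 to 5.56 and 1.63 to 3.06 CPM. Nrros, which presents latent TGF-beta on macrophages and microglia, had 10.8 to 12.8 and 7.74 to 12.5 CPM, and Ltbp1 557 to 695 and 441 to 648 CPM. Among the receptors, Tgfbr1 had 261 to 283 CPM in C1041G/+ and 231 to 279 CPM in WT, Acvr1 42.2 to 51.9 and 47.3 to 55.4, and Acvr1b 31.4 to 39.8 and 41 to 42. The activin receptors Acvr2a and Acvr2b had 22.6 to 34.3 and 2.83 to 4.2 CPM in C1041G/+ ascending aorta, and the BMP receptor Bmpr2 239 to 281 CPM. Smad1, Smad2 and Smad9 had 32.1 to 44, 30.3 to 44.8 and 19.1 to 27.2 CPM there, and the inhibitory Smad7 63.5 to 101 CPM. Id4 had 47.4 to 74.8 CPM, and the corepressors Tgif1 and Skil 9.86 to 14.6 and 155 to 213 CPM. None of these members passed the edgeR test in the unpaired fits of all libraries, in a genotype, region or ASO comparison. Between the regions, Ltbp1 passed it in WT mice without ascending WT 3 (adjusted p = 0.00641) and Tgif1 in C1041G/+ mice without ascending mutant 8 (adjusted p = 0.0301). In the edgeR fit with the number as a fixed block, Acvr1 (0.0481), Smad9 (0.0484) and Id4 (0.0479) were called lower in ascending aorta of C1041G/+ mice. Ltbp1 (0.0286), Tgif1 (0.0159) and Skil (0.0431) were called higher there (adjusted p). With the random block, limma called Acvr1 (0.0414) and Tgif1 (0.046) in C1041G/+ mice and Tgif1 (0.043) in WT mice.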

How the data were processed

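Raw counts per gene were deposited, 1 table per library; the submitters' processing notes name fastp, STAR 2.6.1d and the build mm10, and the counting tool, strand setting and annotation release are not given in them. Totals for CPM include all 54532 rows of the count files, of which 54495 have a gene name in the annotation used here (GENCODE M21). The 16 untreated and the 10 ASO libraries were fitted apart with edgeR 4.0.16 (filterByExpr, TMM, quasi-likelihood F test, Benjamini-Hochberg adjustment over all genes tested, calls below 0.05), R 4.3.3. CPM use TMM-scaled totals. DESeq2 1.42.0 and limma 3.58.1 served as alternatives; the code was tested on simulated data. Library numbers in the labels pair ascending with descending samples: deviations from group means correlated at 0.162 to 0.305 in all 8 pairs. Of the 8 ascending libraries, 6 correlated best with the descending library of their own number, and WT 3 and WT 7 did not. The members and the gene and marker lists were chosen with earlier results of these data known. Members called by edgeR are named with values; of other lists, up to 4 called genes with the smallest p; 1 result is not reported here. Intervals cover the spread between libraries. Promoters are RefSeq's, GRCm38.p6.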

Additional observations from a re-analysis of the deposited data

Results flagged for a closer look

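In 13 of 298 groups of member values (4.36%), 1 library stood apart by Dixon's test at the 95% level, which chance alone gives in about 1 in 20 groups. Control ASO library 8 accounts for 4 of them. It had 169.4 CPM of Tgfb2, against 88.56 to 107.7 in the other control libraries, 257.8 CPM of Tgfb3 against 162.9 to 177.5, 58.34 CPM of Smad6 against 142.3 to 161.9, and 68.41 CPM of Bambi against 32.91 to 39.14. In WT ascending aorta, library 1 had 1.865 CPM of Inha (others 1.014 to 1.149) and 87.08 CPM of Bmpr1b (others 53.73 to 55.88). Library 3 of the same group had 44.85 CPM of Bmp3 (others 52.64 to 53.88) and 441.3 CPM of Ltbp1 (others 640.4 to 648.2). Ascending C1041G/+ library 2 had 2.347 CPM of Bmp7 (others 0.8724 to 0.9783). Descending WT library 3 had 310.2 CPM of Tgfbr1 (others 240.1 to 246.2). AGT-ASO library 20 had 24.21 CPM of Bmp4 (others 31.16 to 33.93) and 780.3 CPM of Ltbp1 (others 584.7 to 636.3), and control ASO library 13 had 41.3 CPM of Bmp4 (others 32.39 to 34.47).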

How the results depend on the processing

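Alternatives were followed gene by gene for 29 pairs of a member and a genotype or region comparison. Genotype pairs were those called or near the threshold, and region pairs only those called. None of the fold changes of these pairs reversed, and of their values 433 kept their side of the threshold, 14 passed it only under the alternative and 45 no longer passed it. Members that passed between the regions only under an alternative are not in these counts. Tgfb1 was such a member in both genotypes, for example by DESeq2 (adjusted p = 0.0395 in C1041G/+ and 0.0377 in WT mice). For C1041G/+ against WT ascending aorta 5 members were called, 7 by DESeq2, 2 when the heart muscle score was added, and 3 to 6 when 1 library was left out (3 without mutant 2 or mutant 4). In the descending aorta 1 was called, 4 by DESeq2, 2 with only the compared groups fitted, 2 with a random replicate block, and 0 to 2 when 1 library was left out. Between the regions in C1041G/+ mice 8 were called, 25 with a fixed replicate block, 15 with a random replicate block, and 6 to 11 when 1 library was left out; the fixed block also drops the other groups from the fit. Between the regions in WT mice the 11 called members became 8 to 14 over all alternatives. The interaction gave 0 throughout. Between AGT-ASO and control ASO 0 were called, 3 by DESeq2, and 0 to 1 when 1 library was left out (1 without control 8). After the data were seen, a fit without ascending mutant 2 and WT 3 was added; in it Bmpr1b had an edgeR adjusted p of 0.109. The cause of these shifts was not tested. Counts of the rarest member, Bmp5, limit it to a bound.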
